A study of Mus musculus with 61 samples.

Results

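The Wnt ligands, their receptors and their secreted modulators were followed through fetal development of the mouse brain and liver. The members were the protein-coding genes whose GENCODE symbol is that of a Wnt, Frizzled (Fzd), secreted Frizzled-related (Sfrp) or Dickkopf (Dkk) gene, together with Lrp5, Lrp6, Axin2, Lef1 and Rspo1 to Rspo3. The rule found 44 genes among 43346 identifiers in the deposited table, 21474 of them protein-coding. They comprised 19 Wnt ligands, 10 Frizzled receptors, 2 Lrp co-receptors, 3 R-spondins, 4 Sfrp and 4 Dkk antagonists, and the feedback and nuclear genes Axin2 and Lef1. RNA had been sequenced from mouse forebrain, midbrain and hindbrain at E10.5, E11.5, E12.5, E13.5, E14.5, E15.5, E16.5 and P0 (the day of birth), and from liver at the same stages from E11.5. No group carried a treatment or an engineered allele that the labels name, and the sources in hand name no strain, sex or number of embryos per library. The 61 libraries (forebrain 15, midbrain 16, hindbrain 16, liver 14) formed 31 groups, 30 of them of 2 libraries, while forebrain at E10.5 had 1. The labels do not say that the 2 libraries of a group came from separate embryos, so the p-values measure the spread between these libraries, which may be technical.

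Wnt proteins are lipid-modified secreted signals. In the canonical branch, a Wnt bound to a Frizzled receptor and to Lrp5 or Lrp6 stabilises beta-catenin, which enters the nucleus and acts with TCF/LEF factors such as Lef1 on target genes, among them the feedback inhibitor Axin2. R-spondins raise the number of Frizzled and Lrp receptors at the cell surface, Sfrp proteins bind Wnts outside the cell, and Dkk1 and Dkk2 bind Lrp5 and Lrp6. In the embryonic brain Wnts pattern the dorsal midline, the midbrain and the border between midbrain and hindbrain, and in the liver they act in growth and later in the zonation of the lobule.

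Values are TPM, a transcript abundance scaled by the authors for transcript length and library size. Each library summed to 997627 to 1000000 TPM. TPM keeps no read count, so depth is unknown, and between 12104 and 15561 genes reached 1 TPM in a library. Regional markers went against the labels at E15.5. Hoxb3, a hindbrain gene, stood at 78.04 and 87.63 TPM in the libraries labelled midbrain E15.5, against 0.19 to 2.08 TPM in midbrain at E14.5 and E16.5, and at 0.15 and 0.24 TPM in those labelled hindbrain E15.5, against 63.08 to 105.14 TPM in hindbrain at the neighbouring stages. The averages over stages below therefore leave E15.5 out. Ranges and medians over the libraries of a tissue include E15.5 as labelled. Brain libraries of E12.5 held 3.64 to 112.36 TPM of the hepatocyte gene Alb, where the median of the other brain libraries was 0.81 TPM. The ribosomal gene Rps27 divided the libraries into 28 with 450.89 to 1246.67 TPM and 33 with 7.49 to 194.02 TPM; hindbrain P0 was the only group with a library in each. Both midbrain P0 libraries lay in the higher set and both midbrain E11.5 libraries in the lower, so that this division and stage cannot be told apart there. For 4 libraries, all labelled E16.5 or P0 and taken from midbrain or hindbrain, the column header and the sample title named different stages, and the header was used.

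Sequence upstream of the transcription start was examined for 3 members that are known targets of beta-catenin, because Axin2, Lef1 and Dkk1 are commonly read as its output and all of them changed with stage below. RefSeq promoter windows (GRCm38.p6, the assembly of mm10) were in hand for 28 of the 44 members, and the 250 bases before each start were searched on both strands for the TCF/LEF word CTTTGAA and for its variants whose last letters are AT, TA or TT in place of AA. Capitals mark the matches.
Axin2, chr11:108920099-108920348, plus strand, no match: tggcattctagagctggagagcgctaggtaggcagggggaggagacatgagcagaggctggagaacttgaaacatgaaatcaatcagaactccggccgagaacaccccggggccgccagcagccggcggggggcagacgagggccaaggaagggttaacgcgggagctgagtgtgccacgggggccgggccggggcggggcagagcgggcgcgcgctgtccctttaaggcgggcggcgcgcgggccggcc
Dkk1, chr19:30549497-30549746, minus strand, the word itself and its TT variant, 117 and 98 bases before the start: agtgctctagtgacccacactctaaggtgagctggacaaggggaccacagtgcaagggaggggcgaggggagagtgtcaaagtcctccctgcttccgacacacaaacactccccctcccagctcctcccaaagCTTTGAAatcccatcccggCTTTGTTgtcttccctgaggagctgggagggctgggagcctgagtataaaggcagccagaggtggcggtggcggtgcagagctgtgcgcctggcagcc
Lef1, chr3:131156044-131156293, plus strand, the TA variant on the other strand, 147 bases before the start: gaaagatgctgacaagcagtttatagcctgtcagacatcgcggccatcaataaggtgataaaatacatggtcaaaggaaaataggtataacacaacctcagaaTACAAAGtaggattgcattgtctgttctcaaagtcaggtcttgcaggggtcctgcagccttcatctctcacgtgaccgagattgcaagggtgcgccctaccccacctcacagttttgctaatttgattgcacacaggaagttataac
The Lef1 window belongs to a start inside the gene, and the other windows of Lef1 (4 in all) held no match. The RefSeq start of Dkk1 also lies inside the GENCODE gene, whose 5' end is at 30549665, and both Dkk1 words fall within that gene. Of the 34 member windows 5 held a word (14.7%), and 4874 of all 32851 windows did (14.8%), so the share among members was that of promoters at large. The remaining matches lay before Fzd7, Wnt5b and Wnt11.

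Of the 44 members 39 reached 1 TPM in at least 2 libraries and were tested. The others, Wnt8a, Wnt10a, Wnt10b, Wnt16 and Dkk4, passed 1 TPM in at most 1 library each. Wnt10b reached 1.26 TPM in hindbrain E12.5 replicate 1 and Wnt16 reached 1.37 TPM in hindbrain P0 replicate 2. Wnt10a stayed at or under 0.89 TPM, Dkk4 at or under 0.35 TPM and Wnt8a at or under 0.24 TPM. A member was called when the limma adjusted p was below 0.05 and the difference of log2(TPM + 1) was at least 1.

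**Figure D1:**
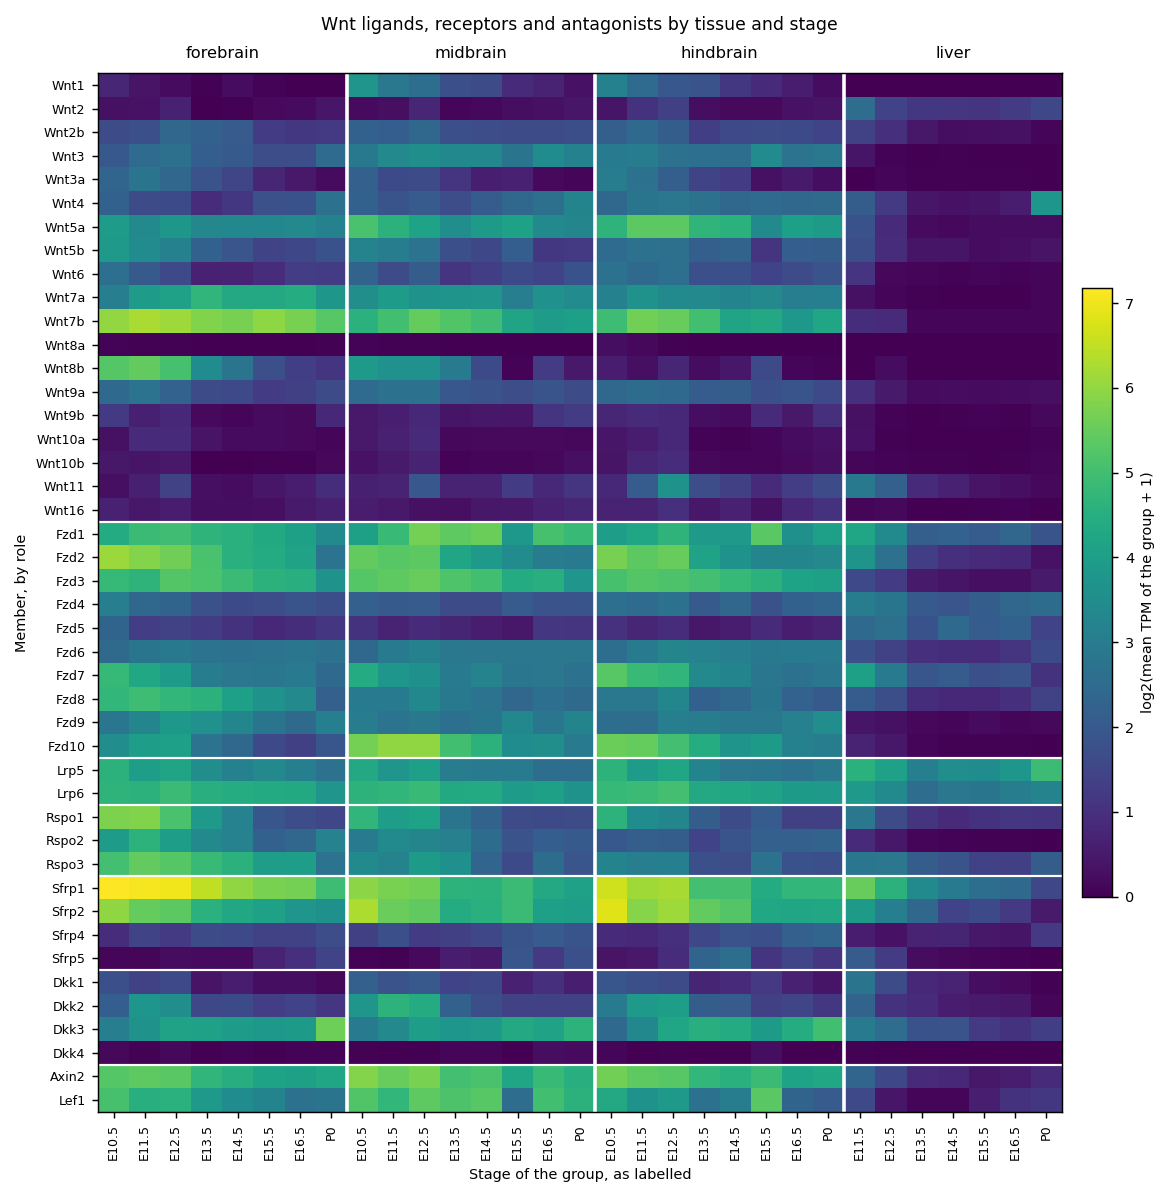
Level of each of the 44 members (rows, by role) in the 31 groups (columns, by tissue and stage), as log2 of the group's mean TPM plus 1. Wnt7b, Fzd2, Fzd3, Fzd10, Sfrp1, Sfrp2, Axin2 and Lef1 are bright in the early brain columns, liver columns are dark for most Wnt genes, and the midbrain and hindbrain columns of E15.5 differ from their neighbours for Lef1 and Fzd1.

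On the TPM scale most members were higher in brain than in liver. Averaged over 6 stages from E11.5 to P0, 29 members were higher in brain and 2 were lower, of 39 tested. That count stands against a wide background, since 52.1% of all genes were called, 43% higher and 9.08% lower, of 18655 tested. The members' median difference was 1.52 on the log2 scale, and that of all genes was 0.80. By role, 11 of 15 tested ligands, 8 of 10 receptors, Lrp6, the 3 R-spondins, 2 of 4 Sfrp genes, 2 of 3 Dkk genes, Axin2 and Lef1 were higher in brain.

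Wnt7b, a ligand made by neurons and neuroepithelium (chromosome 15, 85535437 to 85582473), showed the widest gap. Its values ran from 38.6 to 76.8 TPM (median 56.6) in forebrain, 12.46 to 47.1 TPM (median 26.6) in midbrain and 11.8 to 52.9 TPM (median 22.5) in hindbrain, and from 0.06 to 1.13 TPM (median 0.09) in liver. No brain library overlapped a liver library, and the difference was 4.73 ± 0.05 (SE; limma adjusted p = 5.8e-41). Wnt7a, its close paralog, ranged from 7.37 to 25.9 TPM (median 17.9) in forebrain and never passed 0.27 TPM in liver (3.64 ± 0.04). Fzd3, a receptor known for axon guidance, held 10.1 to 40.4 TPM (median 26.9) in forebrain and 0.19 to 2.3 TPM (median 0.37) in liver (4.01 ± 0.06). Fzd10 and Wnt5a, a ligand of the planar polarity branch, differed by 3.63 ± 0.05 and 3.38 ± 0.04. For each of these genes every brain library lay above every liver library; the gap was narrowest for Fzd10, with 1.17 TPM in the lowest brain library and 0.68 TPM in the highest liver library.

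Axin2 stood at 14 to 43.7 TPM (median 21.6) in forebrain, 16.4 to 56.1 TPM (median 33.8) in midbrain, 16.1 to 53 TPM (median 27.3) in hindbrain and 0.31 to 4.26 TPM (median 0.775) in liver, a difference of 3.70 ± 0.04 (SE; limma adjusted p = 4.4e-41). The midbrain low of 16.4 TPM came from a library labelled E15.5, a stage that the difference leaves out. Lef1 differed by 3.13 ± 0.06 (SE; limma adjusted p = 2.1e-32). In the 6 stages averaged, the libraries of brain and liver did not overlap for these genes or for 11 of the other members called. The share of all genes without overlap was not counted, so nothing is read from that number. Dkk3, among the 11, did overlap with E10.5 included, at 4.41 TPM in the lowest hindbrain library and 6.93 TPM in the highest liver library. Only Fzd5 and Wnt2 were lower in brain among the members called. Fzd5 averaged 0.9 against 3.68 TPM in brain and liver (-1.27 ± 0.04) and Wnt2, an endothelial Wnt of the liver, 0.367 against 2.07 TPM (-1.11 ± 0.03). Wnt1 and Rspo3 lay close to the threshold, at 0.95 and 0.96 without the E12.5 libraries, and Rspo3 was between 0.98 and 0.999 when any of 8 single libraries was left out. Lrp5 (-0.69 ± 0.05) and Fzd4 (-0.38 ± 0.04) lay below 0 without being called, and were called lower in brain, at -1.79 and -1.34, with median-of-ratios scaling.

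The size of this contrast depended on the normalization. The hepatocyte list summed to 13653 to 192777 TPM in liver libraries and the erythroid list to 51059 to 391316 TPM. With median-of-ratios scaling the median of all genes moved from 0.80 to 0.02 and 21 members were called, 17 higher and 4 lower. With quantile normalization 18 were called, 14 higher and 4 lower. The share of all genes called higher with median-of-ratios scaling is given below, with the wider pathway. The other shares of all genes under these scalings are not given. The shares of the main fit are no background for these counts, so nothing is read from them. Fzd7 and Rspo3 then turned to -0.13 and -0.19 with quantile normalization, and Sfrp1, Fzd1, Fzd8, Fzd6, Dkk2, Wnt5b, Rspo1, Lrp6, Wnt2b and Wnt1 lost their calls under both settings. Wnt7b, Fzd3, Axin2, Wnt7a, Fzd10, Wnt5a and Lef1 kept theirs, at 4.29, 3.38, 2.93, 3.32, 3.28, 2.89 and 2.52 with median-of-ratios scaling.

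**Figure D2:**
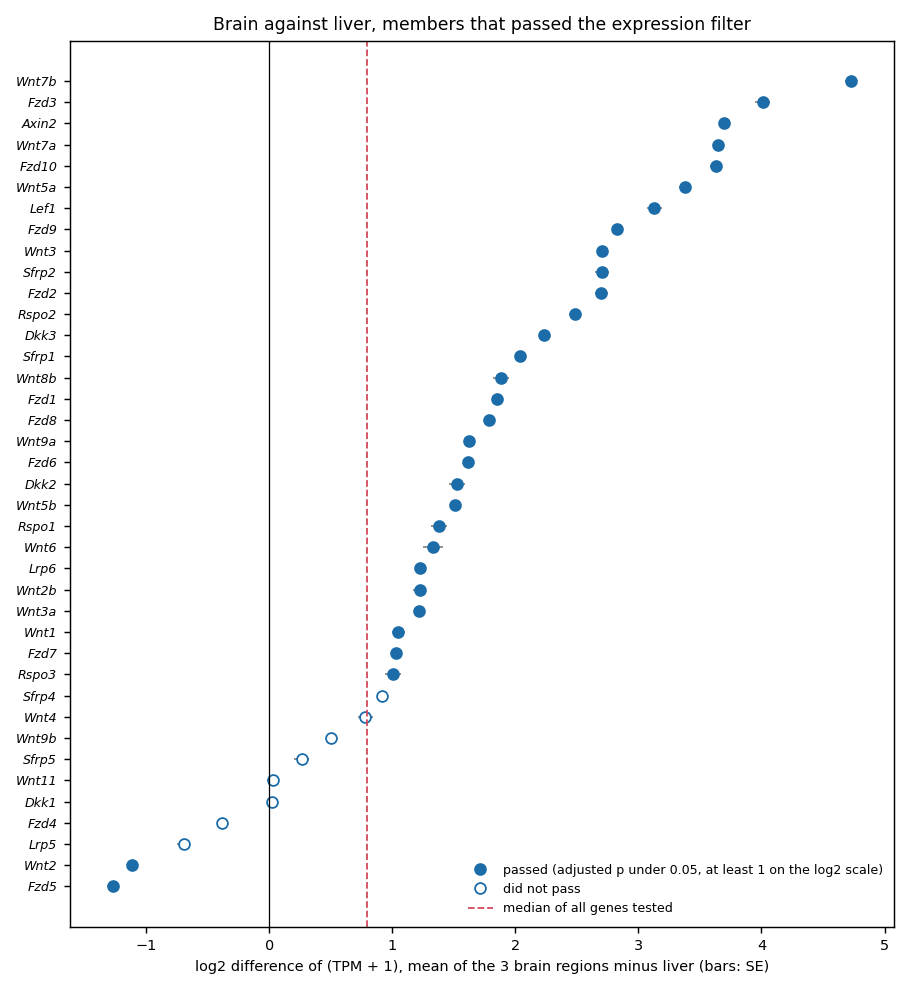
Difference between the mean of the 3 brain regions and liver for the 39 members tested, on the log2(TPM + 1) scale with SE bars; filled points passed the test, and the dashed line is the median of all genes. Wnt7b is highest at 4.73 and Fzd5 lowest at -1.27, and most members lie to the right of the dashed line at 0.80.

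The 3 brain regions held different ligands and receptors at E10.5 and E11.5, the earliest stages. Between forebrain and midbrain 11 members were called (7 higher in forebrain, 4 lower), where 2.81% of all genes were called, 0.815% higher and 1.99% lower. Forebrain and hindbrain differed for 9 members (6 higher in forebrain, 3 lower), where 4.58% of all genes were called, 0.702% higher and 3.88% lower. Midbrain and hindbrain differed for 3 (2 higher in midbrain, 1 lower), where 2.26% of all genes were called, 0.509% higher and 1.75% lower. With quantile normalization or median-of-ratios scaling the last count was 3 higher and none lower, and leaving out 1 library moved it between 2 and 5 (5 without midbrain E10.5 replicate 2). In all, 13 members were called in at least 1 pair of regions. How many of all genes were called in at least 1 pair was not counted, so nothing is read from that number.

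Among the ligands, Wnt8b, a marker of the cortical hem and dorsal forebrain (chromosome 19, 44493472 to 44514273), followed the order forebrain, midbrain, hindbrain. It measured 38 TPM in the forebrain library of E10.5 and 36.4 and 49.2 TPM in those of E11.5. Midbrain held 14.54 and 12.4 TPM at E10.5 and 11.4 and 11.4 TPM at E11.5, and hindbrain 0.14 and 0.84 and then 0.23 and 0.21 TPM. No library of one region overlapped another, and the differences were 4.95 ± 0.16 (SE; limma adjusted p = 2.4e-23) for forebrain over hindbrain, 3.33 ± 0.14 for midbrain over hindbrain and 1.62 ± 0.16 for forebrain over midbrain.

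Wnt1, the ligand required for midbrain and anterior hindbrain development (chromosome 15, 98789857 to 98793837), was lowest in forebrain. Its values were 0.72 TPM in forebrain at E10.5 and 0.32 and 0.29 TPM at E11.5, against 12.4 and 12.4 and then 5.67 and 7.01 TPM in midbrain and 6.38 and 9.55 and then 5.16 and 4.32 TPM in hindbrain. Forebrain minus midbrain was -2.72 ± 0.13 (SE; limma adjusted p = 3.9e-18) and forebrain minus hindbrain -2.25 ± 0.13. Midbrain and hindbrain, neighbours in this order, did not pass the test (0.48 ± 0.12).

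Wnt5a was likewise lower in forebrain, with 7.71 and 11.2 TPM at E11.5 against 23 and 24.2 TPM in midbrain and 37.4 and 43 TPM in hindbrain (-1.22 ± 0.10 and -1.36 ± 0.10 over both stages). Wnt7b was higher in forebrain than in midbrain, with 73.6 and 76.8 against 30.9 and 30.7 TPM at E11.5 (1.34 ± 0.12). Wnt5b was higher in forebrain than in hindbrain (11.8 against 5 TPM, 1.09 ± 0.10).

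Of the receptors, Fzd10 and Fzd8 were divided between regions in opposite directions. Fzd10 held 51.9 and 47.8 TPM in midbrain at E10.5 and 60.4 and 65 TPM at E11.5, 44.7 and 47.5 and then 41.8 and 44.9 TPM in hindbrain, and only 10.6 and then 15.1 and 14.6 TPM in forebrain. Forebrain minus midbrain was -2.07 ± 0.12 and forebrain minus hindbrain -1.75 ± 0.12. Fzd8 held 25.9 TPM in forebrain at E10.5 and 27.6 and 32.1 TPM at E11.5, and 6.3 to 6.86 TPM in midbrain and 5.73 to 6.84 TPM in hindbrain over these stages (1.90 ± 0.10 and 1.98 ± 0.10). Fzd7 was lower in midbrain (12.1 and 13.2 TPM at E11.5) than in hindbrain (27 and 29.7 TPM); its difference of -1.0002 ± 0.09 lay between -0.93 and -0.97, and was not called, without midbrain E10.5 replicate 1, midbrain E11.5 replicate 1, hindbrain E10.5 replicate 2 or hindbrain E11.5 replicate 2.

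The R-spondins, which amplify Wnt signals, were all higher in forebrain than in both other regions at these stages. Rspo1 measured 60.3 and 50.2 TPM in forebrain at E11.5, 13.1 and 17.1 TPM in midbrain and 10.3 and 9.96 TPM in hindbrain. Rspo3 measured 41.8 and 43.1 TPM, 6.53 and 10.1 TPM and 6.87 and 8.02 TPM in the same order, and Rspo2 21.4 and 26.6 TPM, 9.61 and 9.39 TPM and 3.47 and 3.58 TPM. Forebrain exceeded hindbrain by 2.21 ± 0.11 for Rspo2, 2.08 ± 0.16 for Rspo3 and 1.74 ± 0.15 for Rspo1. Rspo2 also separated midbrain from hindbrain (1.11 ± 0.10). Among the antagonists Sfrp1 was higher in forebrain than in midbrain (139 against 56.3 TPM, 1.28 ± 0.09) and Dkk2 was lower (8.04 against 18.1 TPM, -1.22 ± 0.16), with libraries of the regions overlapping for Dkk2. The neuron markers were not level between regions at these stages: 6 of 7 were lower in forebrain than in hindbrain and 3 of 7 lower than in midbrain. Their part in the member differences was not tested.

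**Figure D3:**
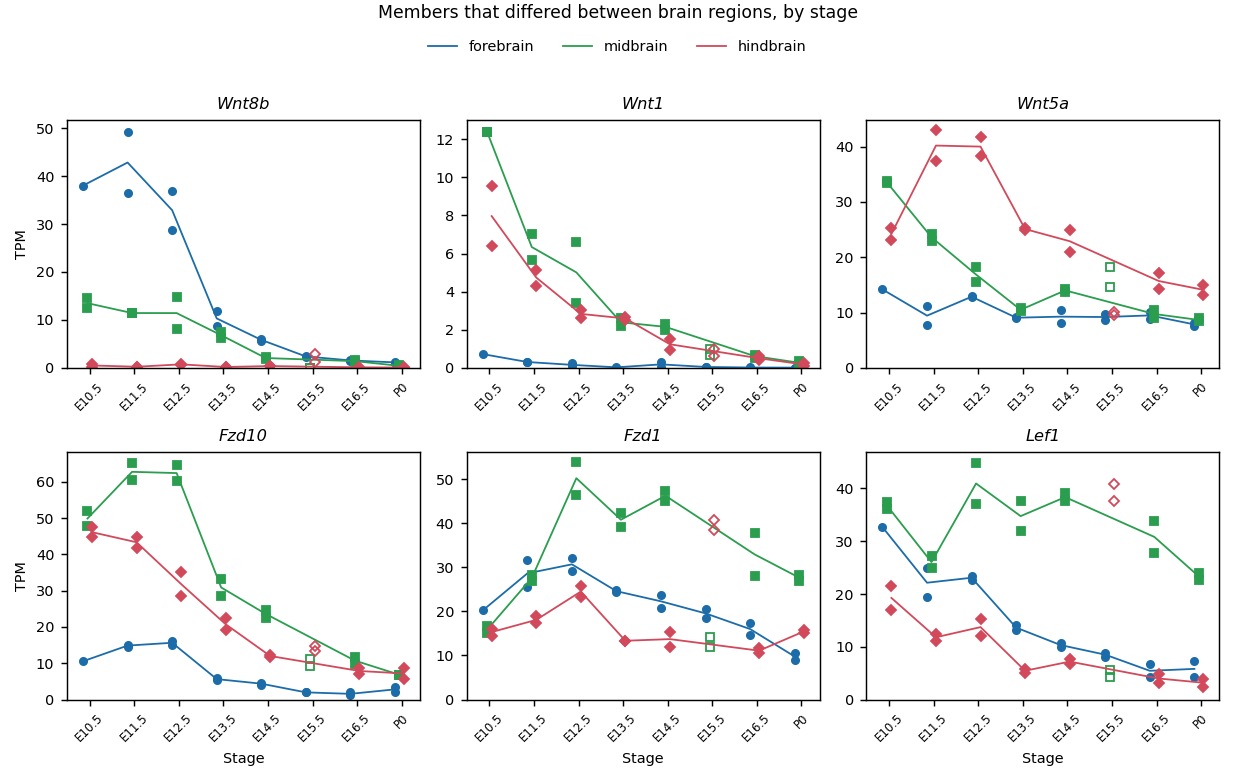
TPM by stage in forebrain (circles), midbrain (squares) and hindbrain (diamonds) for 6 members; each point is 1 library, lines join group means, and the open points are the E15.5 libraries labelled midbrain and hindbrain, left off the lines. Wnt8b starts at 38 TPM in forebrain, Wnt1 stays at or below 0.72 TPM there, and Lef1 and Fzd1 stay high in midbrain, where the open hindbrain points also lie.

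Averaged over the 6 stages from E11.5 to P0, 8 members were called between forebrain and midbrain (4 higher, 4 lower), where 2.36% of all genes were called, 0.852% higher and 1.51% lower. Between forebrain and hindbrain 10 were called (6 higher, 4 lower), where 4.47% of all genes were called, 0.906% higher and 3.56% lower. Between midbrain and hindbrain 3 were called (3 higher, none lower), where 1.76% of all genes were called, 0.461% higher and 1.3% lower. With quantile normalization the split for forebrain and hindbrain was 7 higher and 2 lower. Lef1 (chromosome 3, 131110471 to 131224356) had the largest midbrain excess over hindbrain. Midbrain libraries held 37.5 and 36.1 TPM at E10.5, 37.1 and 44.8 TPM at E12.5, 39.2 and 37.6 TPM at E14.5 and 22.7 and 23.9 TPM at P0. Hindbrain held 17 and 21.5, 15.4 and 12.1, 7.69 and 6.71 and 2.48 and 3.9 TPM at those stages, and forebrain 32.7 (1 library), 23.4 and 22.8, 10.7 and 9.97 and 7.4 and 4.24 TPM. Midbrain exceeded hindbrain by 2.09 ± 0.08 (SE; limma adjusted p = 4.4e-22) with no overlap in the stages averaged, and forebrain minus midbrain was -1.38 ± 0.08. The libraries labelled midbrain E15.5 measured 5.68 and 4.19 TPM of Lef1 and those labelled hindbrain E15.5 37.6 and 40.8 TPM, the reverse of the neighbouring stages.

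Fzd1 (chromosome 5, 4753839 to 4758035) was similar in the regions at E10.5 (20.2 TPM in forebrain, 16.6 and 15.1 TPM in midbrain, a mean of 15.3 TPM in hindbrain). Midbrain then held 46.5 and 53.9 TPM at E12.5, 47.4 and 45 TPM at E14.5 and 28.4 and 26.9 TPM at P0, where hindbrain held 25.8 and 23.2, 15.4 and 12 and 15.2 and 15.7 TPM. The stage average was higher in midbrain by 1.18 ± 0.05 (SE; limma adjusted p = 2e-20), and by 0.80 with the E15.5 libraries included as labelled, which ends the call. With quantile normalization the next differences, of Wnt3 and Wnt11, were -0.98 and -0.95 and not called. Wnt3 was lower in forebrain than in midbrain with no overlap in the stages averaged (3.91 against 9.48 TPM, -1.13 ± 0.05). Wnt11, which peaked in hindbrain at E12.5 (12.3 and 10.8 TPM), was lower in forebrain than in hindbrain (-1.27 ± 0.06). Wnt7b was higher in forebrain than in midbrain by 1.04 ± 0.06 and than in hindbrain by 1.10 ± 0.06; without midbrain P0 replicate 2 the former was 0.99 and not called. The excess of Rspo3 in forebrain held over stages (1.59 ± 0.08 over midbrain and 2.30 ± 0.08 over hindbrain). The E12.5 hindbrain libraries that hold the Wnt11 peak also summed to 116 and 245 TPM of hepatocyte markers and 1102 and 1480 TPM of fibroblast and meningeal markers, against 16.9 and 24.2 TPM and 645 and 701 TPM at E11.5; the part of these cells in the peak was not tested.

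From E11.5 to birth, members mostly fell in each brain region. In forebrain 22 of 39 tested members were called, 19 lower and 3 higher at P0, where 30.9% of all genes were called, 19.2% higher and 11.8% lower. Midbrain had 22 (19 lower, 3 higher), where 33.4% of all genes were called, 18.3% higher and 15.1% lower. Hindbrain had 21 (19 lower, 2 higher), where 28% of all genes were called, 16.2% higher and 11.8% lower. The members' median change was -0.94 in forebrain, -0.97 in midbrain and -0.96 in hindbrain on the log2 scale, and the median of all genes was 0.02, -0.01 and -0.02. Of the members, 11 fell in all 3 regions: Wnt3a, Fzd2, Fzd7, Fzd10, Lrp5, Rspo1, Rspo3, Sfrp1, Sfrp2, Dkk1 and Dkk2. Dkk3 rose in all 3. The share of all genes that fell in all 3 regions was not counted, so nothing is read from the number of members. In midbrain Fzd7 was not called with median-of-ratios scaling (-0.90), with stages taken from the titles (-0.91) or without midbrain P0 replicate 2 (-0.97). The P0 and E11.5 libraries did not overlap for any of the members called. With groups of 2 libraries the call itself makes this likely, so it adds no support.

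Wnt8b, Wnt1 and Wnt3a, ligands of the early dorsal brain, were lower at P0 in some or all regions. Wnt8b in forebrain went from 36.4 and 49.2 TPM at E11.5 through 11.9 and 8.67 TPM at E13.5 to 1 and 1.26 TPM at P0, a fall of 4.35 ± 0.20 (SE; limma adjusted p = 4.8e-20). In midbrain it fell by 3.14 ± 0.20, from 11.4 and 11.4 to 0.51 and 0.31 TPM, and in hindbrain it was not called (-0.21 ± 0.20). Wnt1 fell by 2.54 ± 0.16 in midbrain (5.67 and 7.01 to 0.16 and 0.37 TPM) and by 2.29 ± 0.16 in hindbrain (5.16 and 4.32 to 0.09 and 0.26 TPM), and in forebrain, where it was low throughout, it was not called (-0.37 ± 0.16). Wnt3a, a cortical hem ligand needed for the hippocampus, fell by 2.56 ± 0.12, 1.52 ± 0.12 and 2.42 ± 0.12 in forebrain, midbrain and hindbrain, to at most 0.27 TPM at P0. Wnt7a (-0.15 ± 0.11 in forebrain) and Wnt3 (-0.22 ± 0.12 in midbrain) were not called in any region. Wnt5b and Wnt9a fell in forebrain (-1.67 ± 0.12 and -1.11 ± 0.11) and in midbrain (-1.79 ± 0.12 and -1.02 ± 0.11), Wnt5a in midbrain and hindbrain (-1.35 ± 0.13 and -1.45 ± 0.13), and Wnt7b and Wnt2b in hindbrain (-1.45 ± 0.15 and -1.01 ± 0.15). Wnt9a in forebrain was -0.92 without forebrain P0 replicate 1, Wnt9a in midbrain -0.93 without midbrain E11.5 replicate 2, and Wnt2b -0.90 without hindbrain P0 replicate 1, none of them called. Wnt2, Wnt6, Wnt9b and Wnt11 were not called between these stages in any brain region. Wnt6 in hindbrain (-0.75 ± 0.24) was called at -1.44 without hindbrain P0 replicate 2 and at -1.11 with stages taken from the titles. Without single libraries, calls were also gained by Wnt9a in hindbrain (-1.09 without hindbrain P0 replicate 2) and Wnt7b in midbrain (-1.24 without midbrain P0 replicate 1).

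Wnt4 was the 1 ligand called higher at P0 in brain. Forebrain held 2.23 and 2.11 TPM at E11.5, 0.84 and 0.93 TPM at E13.5 and 5.59 and 5.14 TPM at P0, and midbrain 2.57 and 2.68, 2.38 and 2.13 and 8.05 and 8.79 TPM. The change was 1.38 ± 0.18 (SE; limma adjusted p = 3.1e-08) in midbrain and 1.0050 ± 0.18 in forebrain, while hindbrain, with 5.99 and 5.86 TPM at E11.5 and 3.58 and 5.59 TPM at P0, was not called (-0.33 ± 0.18). The forebrain change sat on the threshold and was no longer called without forebrain E11.5 replicate 2 (0.98) or forebrain P0 replicate 1 (0.95), and it was 0.59 with quantile normalization.

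Some receptors fell. Fzd2 went from 56.5 and 56.1 TPM to 5.32 and 6.06 TPM in forebrain, from 39.1 and 38.8 to 7.55 and 5.66 TPM in midbrain and from 38.9 and 42.1 to 6.37 and 12.6 TPM in hindbrain. The changes were -3.10 ± 0.16, -2.40 ± 0.16 and -2.05 ± 0.16. Fzd10 fell by 3.02 ± 0.15 (SE; limma adjusted p = 8.3e-19) in midbrain, from 60.4 and 65 to 6.83 and 6.84 TPM. Fzd8 fell in forebrain from 27.6 and 32.1 to 3.36 and 3.79 TPM, by 2.75 ± 0.12, and was not called in midbrain (-0.44 ± 0.12) or hindbrain (-0.84 ± 0.12; -1.06 and called with quantile normalization, and -1.003 and called without hindbrain P0 replicate 2). In hindbrain Fzd7 fell by 2.08 ± 0.13, from 27 and 29.7 to 5.14 and 6.85 TPM. Fzd6 stayed between 3.92 and 9.28 TPM in all brain libraries and was not called in any region.

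The co-receptor Lrp5 fell by 1.32 ± 0.16, 1.17 ± 0.16 and 1.09 ± 0.16 in forebrain, midbrain and hindbrain, and Lrp6 by 1.04 ± 0.12 and 1.02 ± 0.12 in midbrain and hindbrain. Most of these co-receptor changes lie close to the threshold: without hindbrain P0 replicate 1 the hindbrain values were -0.88 for Lrp5 and -0.99 for Lrp6, and without midbrain E11.5 replicate 2 that of Lrp6 in midbrain was -0.97. Lrp6 in hindbrain was -0.96 without hindbrain E11.5 replicate 2, and Lrp5 in midbrain -0.996 without midbrain P0 replicate 2. In forebrain at E11.5 Lrp6 measured 17.4 and 29.1 TPM, and Fzd3 13.9 and 34.4 TPM, so replicate 1 lay well below replicate 2 for both genes. Neither was called in forebrain, but without that replicate both were, at -1.48 for Fzd3 and -1.18 for Lrp6. Fzd3 was also called at -1.05 without forebrain P0 replicate 2.

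R-spondins fell together in forebrain. Rspo1 (chromosome 4, 124986430 to 125009099) declined there at every step from E11.5 to E14.5, from 60.3 and 50.2 TPM at E11.5 to 33.8 and 33.3, 14.8 and 12.1 and 8.62 and 7.44 TPM, and reached 1.91 and 1.82 TPM at P0, a fall of 4.29 ± 0.19 (SE; limma adjusted p = 3.4e-20). It also fell by 2.32 ± 0.19 in midbrain and 2.14 ± 0.19 in hindbrain. Rspo3 fell by 2.72 ± 0.20 in forebrain (41.8 and 43.1 to 5.19 and 6.05 TPM), 1.29 ± 0.20 in midbrain and 1.33 ± 0.20 in hindbrain. Rspo2 fell in forebrain and midbrain, and in hindbrain held 3.47 and 3.58 TPM at E11.5 and 3.96 and 3.87 TPM at P0.

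The antagonists split by gene. Dkk2 fell in all regions, in midbrain from 23.1 and 24.6 TPM to 1.52 and 1.67 TPM by 3.26 ± 0.20 (SE; limma adjusted p = 1e-16), in hindbrain by 2.74 ± 0.20 and in forebrain by 2.64 ± 0.20. Sfrp1 fell in forebrain from 118 and 150.1 to 27.9 and 31.4 TPM, by 2.13 ± 0.12, and remained one of the highest members there. Sfrp2 fell by 1.87 ± 0.17, 1.52 ± 0.17 and 1.62 ± 0.17. Dkk3, a divergent Dickkopf that does not act on Lrp6 as Dkk1 does, rose instead. It went from 11.3 and 12.2 to 47.5 and 47.1 TPM in forebrain, from 9.72 and 9.21 to 25.7 and 22 TPM in midbrain and from 9.05 and 9.16 to 30.8 and 31.3 TPM in hindbrain (1.92 ± 0.13, 1.24 ± 0.13 and 1.67 ± 0.13). In forebrain most of this came after E16.5, when the libraries held 14.9 and 12.8 TPM. Sfrp5 rose in forebrain (0.05 and 0.08 to 1.61 and 1.85 TPM) and midbrain (0.03 and 0.03 to 2.54 and 2.17 TPM), and in hindbrain it was highest at E14.5 (4.05 and 6.04 TPM). Sfrp4 rose in hindbrain, from 0.83 and 0.69 to 4.19 and 3.89 TPM (1.52 ± 0.13).

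The target gene Axin2 fell from 39.1 and 43.7 to 16.9 and 18.3 TPM in forebrain (-1.19 ± 0.12) and from 38.6 and 44.3 to 18.2 and 18.6 TPM in hindbrain (-1.13 ± 0.12, or -0.99 and not called with median-of-ratios scaling), and in midbrain, at 41 and 47.9 and then 21.9 and 22.5 TPM, the change of -0.97 ± 0.12 did not reach the threshold (-1.08, and called, without midbrain E11.5 replicate 1). Lef1 fell in forebrain by 1.79 ± 0.19 and in hindbrain by 1.63 ± 0.19, and its midbrain change was -0.15 ± 0.19. In bulk tissue, fewer cells of a type and less RNA per cell cannot be told apart. Marker lists moved over the same interval. Progenitor markers were lower at P0 for 7 of 8 genes in forebrain, 7 of 8 in midbrain and 4 of 8 in hindbrain, neuron markers higher for 7, 6 and 4 of 7, and fibroblast and meningeal markers lower for 6 of 8 in each region. The progenitor list summed to 2883 and 3125 TPM at E11.5 and to 2137 and 2221 TPM at P0 in forebrain, and the neuron list to 1237 and 1244 TPM and then 5207 and 5787 TPM. The part of these shifts in the member changes was not tested.

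**Figure D4:**
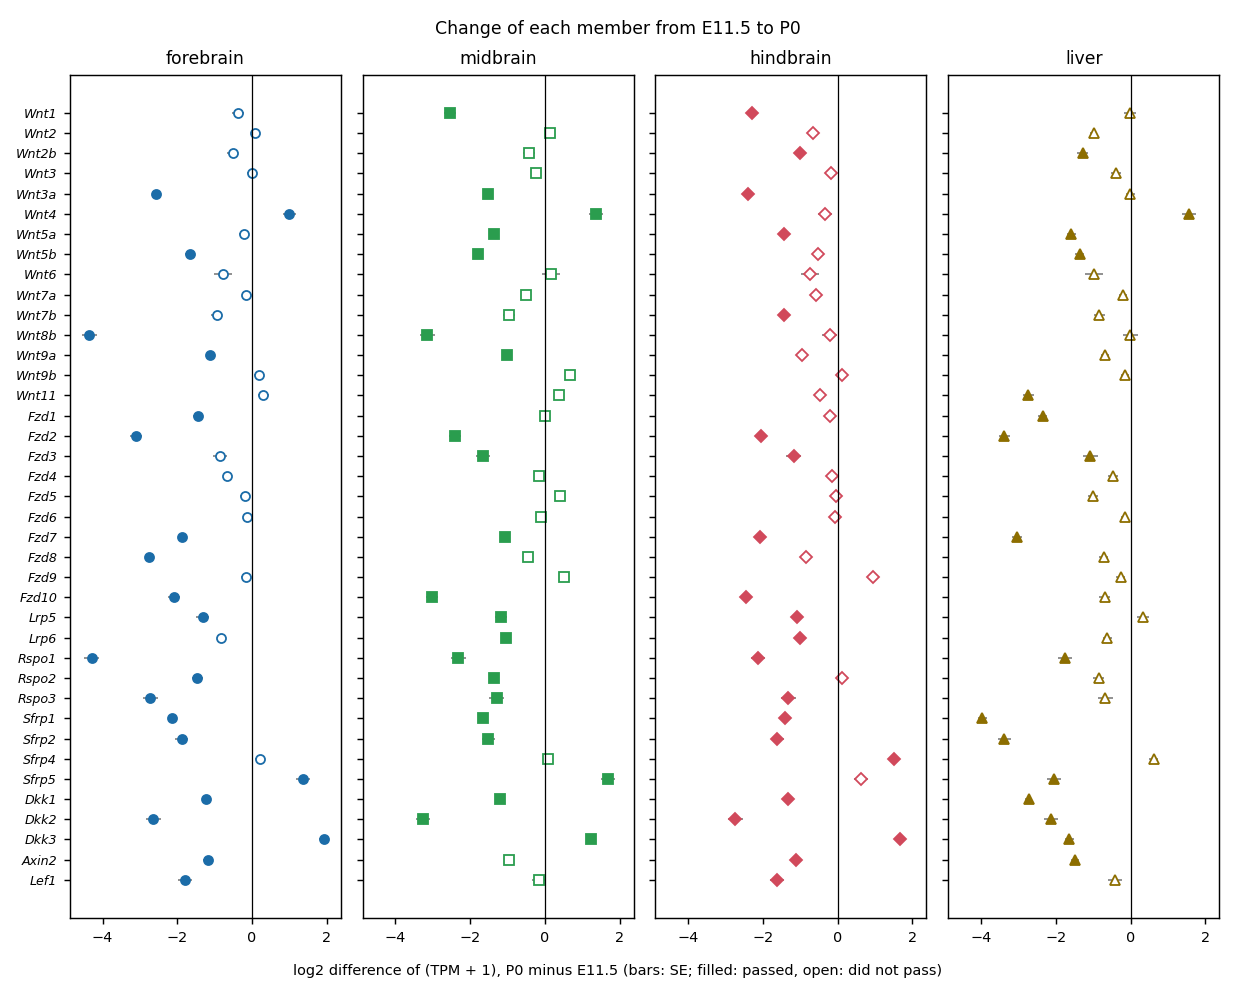
Change of each tested member from E11.5 to P0 in forebrain, midbrain, hindbrain and liver, on the log2(TPM + 1) scale with SE bars; filled symbols passed the test. Most filled symbols lie left of 0 in all panels; Dkk3 lies right of 0 in the brain panels and left of it in liver, and Wnt8b and Rspo1 lie below -4 in forebrain only.

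The size of these changes differed between regions for some members, tested as a difference of the changes. Forebrain and hindbrain differed for 13 members (3 higher, 10 lower, where lower means a lower value of the change in forebrain), where 7.96% of all genes were called, 5.02% higher and 2.94% lower. Forebrain and midbrain differed for 9 (2 higher, 7 lower), where 5% of all genes were called, 3.26% higher and 1.73% lower. Midbrain and hindbrain differed for 8 (4 higher, 4 lower), where 4.72% of all genes were called, 2.12% higher and 2.61% lower. With quantile normalization forebrain and midbrain split into 1 higher and 8 lower. The pairs share libraries, so their counts are not independent. Fzd8 fell more in forebrain than in midbrain by 2.31 ± 0.17 (SE; limma adjusted p = 4.3e-12) and than in hindbrain by 1.91 ± 0.17. Rspo1 did so by 1.97 ± 0.28 and 2.15 ± 0.28, and Rspo3 by 1.43 ± 0.28 and 1.39 ± 0.28. Rspo2 fell more in forebrain (-1.58 ± 0.20) and in midbrain (-1.48 ± 0.20) than in hindbrain. Wnt1, at or below 0.72 TPM in every forebrain library, differed the other way (2.17 ± 0.23 and 1.92 ± 0.23). The change of Lef1 in forebrain lay below that in midbrain by 1.64 ± 0.26 (SE; limma adjusted p = 1.8e-05), and that in midbrain above that in hindbrain by 1.48 ± 0.26; Fzd1 differed by -1.46 ± 0.17 between forebrain and midbrain. The change of Wnt4 was higher in midbrain and in forebrain than in hindbrain (1.71 ± 0.26 and 1.34 ± 0.26), and that of Sfrp4 was higher in hindbrain than in both (-1.42 ± 0.18 and -1.30 ± 0.18). The differences of Fzd2 and Fzd9 between forebrain and hindbrain were -0.61 and -0.87, and not called, without hindbrain P0 replicate 2. Fzd2 was also not called without forebrain P0 replicate 1 (-0.97) or hindbrain E11.5 replicate 1 (-0.99).

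In liver, Sfrp, Dkk and some Frizzled and Wnt genes were lower at P0 than at E11.5. Of 39 tested members 17 were called, 16 lower and 1 higher, where 46.3% of all genes were called, 8.14% higher and 38.2% lower. The members' shares were therefore close to those of all genes, and nothing is read from the count. The members' median change was -0.86 and that of all genes -0.69. Median-of-ratios scaling moved the latter to -0.01 and gave 3 higher and 13 lower members, where 17.0% of all genes were called higher and 8.29% lower. Of the 16, Dkk3, Axin2 and Fzd3 (-0.83, -0.86 and -0.63) were not called with that scaling. Fzd3 was also not called without liver E11.5 replicate 2 (-0.93) or liver P0 replicate 2 (-0.97).

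Sfrp1 and Sfrp2 had the largest falls among the members tested in liver. Sfrp1 (chromosome 8, 23411502 to 23449632) measured 46.1 and 42.8 TPM at E11.5, 22.8 and 24 TPM at E12.5, 10.3 and 9.28 TPM at E13.5, 6.43 and 7.14 TPM at E14.5, 4.75 and 5.24 TPM at E15.5, 4.46 and 4.46 TPM at E16.5 and 2.11 and 1.68 TPM at P0. Its fall was 3.98 ± 0.12 (SE; limma adjusted p = 1.1e-25), or 3.11 with median-of-ratios scaling. Sfrp2 went from 15.8 and 12.4 TPM to 0.36 and 0.51 TPM, by 3.39 ± 0.17, and Sfrp5 from 3.13 and 3.2 TPM to a listed value of 0 in both P0 libraries. Dkk1, whose upstream window is printed above, fell from 5.94 and 5.61 TPM at E11.5 and 2.05 and 2.2 TPM at E12.5 to 0.01 and 0.03 TPM at P0 (-2.73 ± 0.09).

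Of the receptors Fzd1, Fzd2, Fzd3 and Fzd7 were called, 4 of 10, near the 38.2% of all genes called lower. Fzd2 went from 12.1 and 12.3 to 0.26 and 0.28 TPM (-3.38 ± 0.16), Fzd7 from 16 and 15.8 to 1.03 and 1.08 TPM (-3.04 ± 0.13) and Fzd1 from 17.8 and 17.1 to 2.57 and 2.66 TPM (-2.35 ± 0.12). Fzd4, in contrast, held 5.82 and 8.21 TPM at E11.5 and 4.08 and 5.45 TPM at P0 and was not called (-0.47 ± 0.13). Fzd5 ranged from 1.59 to 5.35 TPM (median 3.5) and was not called in this comparison (-0.9990 ± 0.13), though it was called at -1.03 without liver E11.5 replicate 2 and at -1.07 without liver P0 replicate 1. Among the ligands Wnt11 fell from 6.15 and 6.7 TPM to 0.11 and 0.1 TPM (-2.75 ± 0.15), and Wnt5a, Wnt5b and Wnt2b fell by 1.58 ± 0.13, 1.36 ± 0.12 and 1.28 ± 0.15. Wnt2 held 5.77 and 4.08 TPM at E11.5 and 1.91 and 1.99 TPM at P0 (-0.99 ± 0.09) and was not called, but was at -1.20 without liver E11.5 replicate 2 and at -1.01 without liver P0 replicate 2. Axin2 fell by 1.49 ± 0.12, from 4.26 and 3.9 to 0.69 and 0.92 TPM.

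Wnt4 (chromosome 4, 137277489 to 137299726) was the 1 member called higher on the TPM scale. Liver held 3.24 and 3.38 TPM at E11.5, 1.19 and 1.47 TPM at E12.5, 0.24 to 0.55 TPM over the next 4 stages, and 16.9 and 8.06 TPM at P0. Both P0 libraries lay above every earlier one, though they differed from each other by more than any earlier pair. The change was 1.57 ± 0.18 (SE; limma adjusted p = 1.5e-09), or 2.69 with median-of-ratios scaling, and 1.07 and 2.06 without liver P0 replicate 1 and 2. Lrp5 held 21.1 and 24.9 TPM at E11.5, 7.76 and 7.25 TPM at E13.5, 13.6 and 11.8 TPM at E16.5 and 32.2 and 26 TPM at P0. Its change of 0.33 ± 0.16 was not called, but was called at 1.48 with median-of-ratios scaling and 1.07 with quantile normalization, and over all stages it changed, with a range of stage means of 1.82. Sfrp4 was also called higher with these scalings, at 1.41 and 1.17.

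Markers of supporting cells moved with these falls. The fibroblast and meningeal list summed to 503 and 541 TPM in liver at E11.5 and 232 and 273 TPM at P0, with 6 of 8 genes lower and 1 higher. The stellate and mesothelial list summed to 167 and 184 TPM and then 71.6 and 73.9 TPM, with 6 of 8 lower and 2 higher. Hepatocyte markers summed to 13653 and 14749 TPM and then 180004 and 192777 TPM, with 8 of 9 higher. Their part in the liver changes was not tested.

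**Figure D5:**
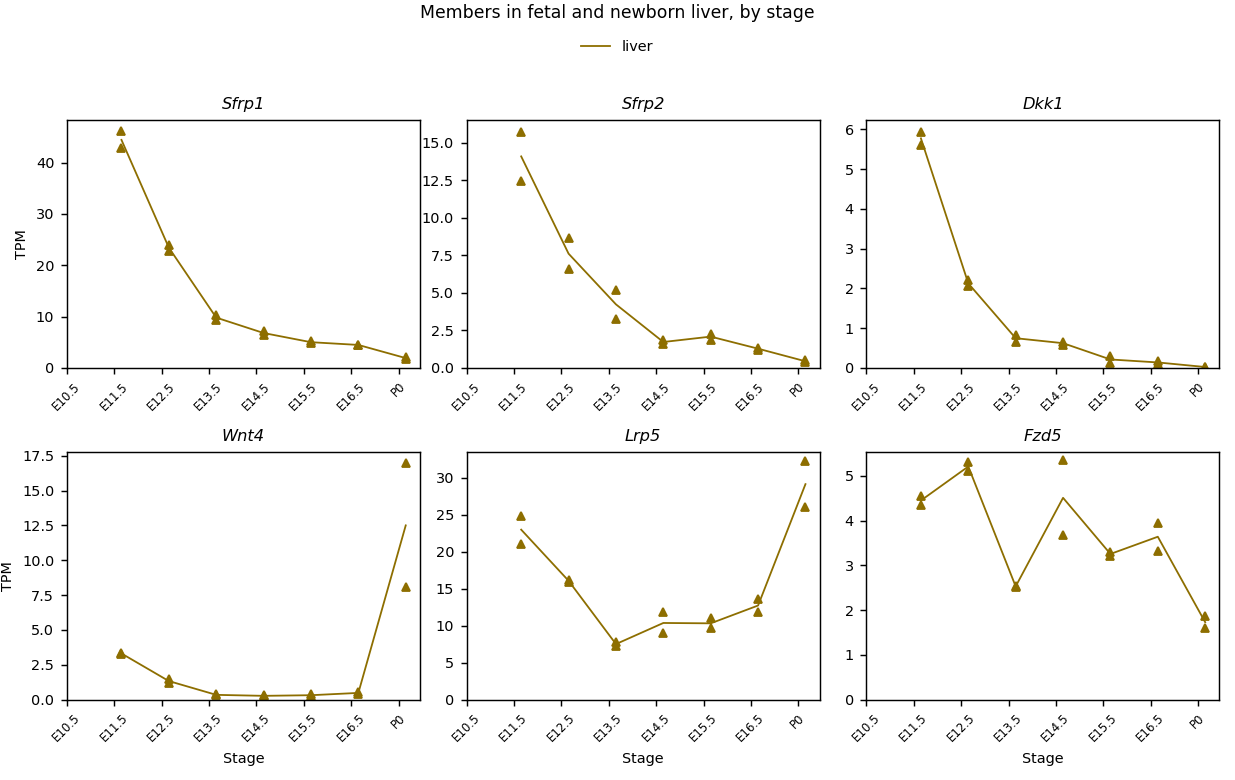
TPM of 6 members in liver by stage; each triangle is 1 library and lines join group means. Sfrp1, Sfrp2 and Dkk1 decline from E11.5, Wnt4 stays under 1 TPM from E13.5 to E16.5 and reaches 8.06 and 16.9 TPM at P0, and Lrp5 is highest at P0.

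Brain and liver changed differently for 16 members (9 higher, 7 lower, as the brain change minus the liver change), where 47.9% of all genes were called, 38.6% higher and 9.32% lower. Median-of-ratios scaling gave 6 higher and 11 lower, and quantile normalization 7 and 11. The total of 16 of 39 tested members was near the share of all genes called. The shares of all genes under the other scalings are not given, so nothing is read from these counts. Dkk3, which rose in brain and fell in liver, differed by 3.25 ± 0.14 (SE; limma adjusted p = 1.3e-20), and Sfrp5 by 3.29 ± 0.21. Sfrp1 differed by 2.25 ± 0.14, with the deeper fall in liver. Wnt11 differed by 2.81 ± 0.17. It fell in liver and was called in no brain region (0.30 in forebrain, 0.38 in midbrain and -0.49 in hindbrain). On the other side, Wnt8b (-2.55 ± 0.23), Wnt3a (-2.15 ± 0.14) and Lrp5 (-1.52 ± 0.19) had the lower value in brain; Wnt8b and Wnt3a never passed 0.28 and 0.08 TPM in liver.

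Over the stages of each tissue, without E15.5 in midbrain and hindbrain, the F test called 32 members in forebrain (background 51.9%) and 27 in midbrain (51.9%). It called 27 in hindbrain (48.1%) and 26 in liver (63.6%), and 17 members in every tissue. The liver count was near its background, and the share of all genes called in every tissue was not counted, so nothing is read from these 2 counts. The F test added members that peak between the ends, such as Wnt7a in forebrain, which held 13.7 and 15.1 TPM at E11.5, 24.9 and 25.9 TPM at E13.5 and 12.7 and 12.9 TPM at P0. Wnt2 in hindbrain peaked at E12.5 with 1.62 and 1.52 TPM. Fzd4 and Wnt9b were called only by this test.

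Genes of the wider pathway, from lists of secretion factors (6 genes tested), other extracellular antagonists (9), other receptors and the R-spondin axis (13), cytoplasmic transducers (15), nuclear factors (11) and planar polarity genes (8), were set beside the members. On the TPM scale, where 43% of all genes were higher in brain than in liver, 6 secretion factors, 6 extracellular antagonists, 5 other receptors, 15 cytoplasmic transducers, 11 nuclear factors and 6 planar polarity genes were higher, and 1 other receptor and 1 planar polarity gene lower. Median-of-ratios scaling, which moved the median of all genes from 0.80 to 0.02 and the share called higher to 21.8%, left 5, 4, 2, 8, 7 and 5 higher in that order. The largest differences over these lists were those of Apc2 (149.7 against 0.394 TPM, 6.75 ± 0.06) and Apcdd1 (5.16 ± 0.05), a membrane inhibitor of the pathway. Between regions the transcription factor Tcf7l2, a partner of beta-catenin, stood out among these lists. It averaged 268 against 15.2 TPM in midbrain and hindbrain (4.16 ± 0.21) and was lower in forebrain than in midbrain (-2.02 ± 0.21). Frzb, an antagonist related to the Sfrp genes, was lower in midbrain than in hindbrain (-1.72 ± 0.10), and Lgr5, an R-spondin receptor, lower in forebrain than in midbrain (-1.02 ± 0.05) and hindbrain (-1.41 ± 0.05). At E10.5 and E11.5 Draxin, an axon guidance antagonist, was lower in forebrain than in midbrain (-1.60 ± 0.09) and hindbrain (-1.71 ± 0.09), with Tcf7l2 (-1.60 ± 0.40) and Sost (-1.51 ± 0.09) next; midbrain exceeded hindbrain for Tcf7l2 (3.03 ± 0.36) and Apcdd1 (1.58 ± 0.10).

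From E11.5 to P0 the cytoplasmic transducers were mostly not called in brain: 2 of 15 rose in forebrain, 2 in midbrain and none in hindbrain, and none fell. The other receptors fell for 4, 5 and 6 of 13 and rose for 1 in each region. In forebrain Tcf7l1, a repressing TCF factor of progenitors, fell by 2.64 (4.34 against 32.4 TPM at P0 and E11.5) and the planar polarity gene Prickle2 rose by 2.43 ± 0.14. Dkkl1 rose by 2.43 ± 0.16 in midbrain and 2.57 ± 0.16 in hindbrain, and the heparan sulfatase Sulf1 fell by 2.34 and 2.24. In liver 4 secretion factors, 2 extracellular antagonists, 7 other receptors, 13 cytoplasmic transducers, 9 nuclear factors and 4 planar polarity genes were lower at P0, where 38.2% of all genes were. With median-of-ratios scaling, which moved the median of all genes from -0.69 to -0.01 and the share called lower to 8.29%, the counts were 3, 1, 4, 2, 3 and 1 in that order. On the TPM scale 1 extracellular antagonist, 1 other receptor and 1 nuclear factor were higher. The largest falls over these lists were those of Sulf2 (-4.12 ± 0.16, 1.42 against 40.4 TPM) and the receptor Ptk7 (-2.44 ± 0.12).

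The change differed most between forebrain and hindbrain for Draxin (1.74 ± 0.15) and Prickle2 (1.43 ± 0.19), between forebrain and midbrain for Wif1 (-2.18 ± 0.26) and Draxin (2.01 ± 0.15), between midbrain and hindbrain for Apcdd1 (-1.60 ± 0.19) and Sost (1.09 ± 0.16), and between brain and liver for Sulf2 (4.18 ± 0.18) and Dkkl1 (3.43 ± 0.19).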

How the data were processed

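RNA-seq of 61 libraries was used. Per the labels' protocols, lipid tissue kits gave total RNA for stranded mRNA libraries. The authors deposited 1 table of TPM values; the submitters' processing notes name STAR 2.4.0k, RSEM 1.2.23 and mm10, and the annotation is not given in the sources used here. Columns were placed by the tissue and stage in their headers, and identifiers were matched to GENCODE M21 (GRCm38) for 42462 of 43346 rows.

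Values were analysed as log2(TPM + 1), which understates changes of low genes. The 18655 genes reaching 1 TPM in 2 or more libraries entered 1 limma 3.58.1 fit (R 4.3.3; a mean per tissue and stage, mean-variance trend, 30 residual degrees of freedom). P-values are two-sided and Benjamini-Hochberg adjusted within each contrast over all genes tested. The fit was tested on simulated data first.

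The members and lists were chosen with earlier results of these data known. Values are given for up to 6 called members per comparison with the largest change and at least 2 TPM in a group, and for others where stated; genes of the wider pathway named are the 2 called with the largest change per comparison. Alternatives were pseudocount 0.1, no filter, median-of-ratios scaling, quantile normalization, no trend, only the compared libraries, replicate blocks, stage from the title, leaving out E12.5, conflicting or single libraries, and E15.5 as labelled. Those added after seeing the data, with the Rps27 set as a term and with the low-Rps27 libraries only, are marked as such below; the former is fixed by 1 group alone.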

Additional observations from a re-analysis of the deposited data

Results flagged for a closer look

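For 25 members the change from E11.5 to P0 differed between tissues by the test of the difference itself (limma adjusted p below 0.05 and at least 1 on the log2 scale), which is what marks them for a closer look. Of all genes tested, 47.9% were called between brain and liver and 7.96% between forebrain and hindbrain. Between forebrain and midbrain 5% were called, and between midbrain and hindbrain 4.72%. The share of all genes called in at least 1 of these was not counted, so nothing is read from the number of members. Values are the change in the tissue named before minus that in the tissue named after.

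Between the mean of the brain regions and liver the values were Sfrp5 (3.29), Dkk3 (3.25), Wnt11 (2.81), Wnt8b (-2.55), Sfrp1 (2.25), Wnt3a (-2.15), Fzd10 (-1.82), Fzd1 (1.80), Wnt1 (-1.72), Sfrp2 (1.72), Lrp5 (-1.52), Dkk1 (1.47), Fzd7 (1.37), Rspo1 (-1.16), Rspo3 (-1.10), Fzd5 (1.06). Dkk3 and Sfrp5 are the members that rose in 1 tissue and fell in another. With median-of-ratios scaling Fzd1 (0.97), Fzd7 (0.79) and Fzd5 (0.25) were not called.

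Between forebrain and hindbrain they were Wnt8b (-4.14), Rspo1 (-2.15), Wnt1 (1.92), Fzd8 (-1.91), Rspo2 (-1.58), Rspo3 (-1.39), Wnt4 (1.34), Sfrp4 (-1.30), Fzd1 (-1.24), Wnt5a (1.23), Wnt5b (-1.12), Fzd9 (-1.11), Fzd2 (-1.05). Beside Fzd9 and Fzd2, described above, Wnt5a was not called without forebrain E11.5 replicate 1 (0.99). Wnt5b was not called without forebrain P0 replicate 2 (-0.96).

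Between forebrain and midbrain they were Fzd8 (-2.31), Wnt1 (2.17), Rspo1 (-1.97), Lef1 (-1.64), Fzd1 (-1.46), Rspo3 (-1.43), Wnt8b (-1.21), Wnt5a (1.13), Wnt3a (-1.04). With pseudocount 0.1 Wnt8b was -0.59 and Wnt3a -0.89, and neither was called. Calls were also lost by Wnt5a (0.89) and Wnt3a (-0.98) without forebrain E11.5 replicate 1. Wnt3a lost its call without midbrain E11.5 replicate 1 (-0.94), and Wnt8b without forebrain E11.5 replicate 2 (-0.99).

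Between midbrain and hindbrain they were Wnt8b (-2.93), Wnt4 (1.71), Lef1 (1.48), Rspo2 (-1.48), Sfrp4 (-1.42), Wnt5b (-1.25), Sfrp5 (1.08), Fzd7 (1.02). Fzd7 was between 0.84 and 0.96, and not called, when any of 4 single libraries was left out. Sfrp5 was 0.92 and 0.998, and not called, without either of 2 single libraries, and 0.99 with median-of-ratios scaling.

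In the libraries labelled E15.5, Fzd1 measured 14.3 and 11.8 TPM in midbrain and 40.6 and 38.4 TPM in hindbrain, and Wnt8b 0.03 and 0.06 and 1.27 and 2.78 TPM, the reverse order of E14.5 and E16.5 for both genes.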

How the results depend on the processing

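Across 203 called differences of members, no mean-variance trend, no filter on low values and both replicate block fits kept every direction and call. The block fits used a single term for the replicate number over all libraries, or a term within each stage. Both left out the replicate 3 libraries. Same-numbered libraries showed mostly weak correlations of their deviations (38 pairs of tissues at 1 stage, -0.634 to 0.226, median 0.035, 10 over 0.1). The lowest was that of forebrain and liver at E13.5. Such correlations cannot show whether same-numbered libraries share embryos, so pairing stays unknown. Counts of members called that moved by over 1.5 times were brain against liver with quantile normalization (18 for 31), and, with pseudocount 0.1, midbrain against hindbrain (5 for 3), the same at E10.5 and E11.5 (9 for 3), liver P0 against E11.5 (29 for 17) and the difference between brain and liver (25 for 16). Leaving out 1 library gave 2 to 5 for midbrain against hindbrain at E10.5 and E11.5, and ended 23 of the 203 calls at least once. Directions turned for Fzd7 and Rspo3 in brain against liver with quantile normalization (-0.13 and -0.19) and for Fzd10 in the difference between brain and liver with pseudocount 0.1 (0.016). Median-of-ratios scaling ended 28 calls, the stage taken from the title 8, and leaving out the libraries whose header and title differ 4. Of the alternatives chosen after seeing the data, the low-Rps27 libraries alone kept 122 calls and ended 3. The rest could not be fitted with them, among them all midbrain changes from E11.5 to P0 and all comparisons at E10.5 and E11.5. The term for the Rps27 set is fixed by the 2 hindbrain P0 libraries alone and tests nothing in the other groups, so its values are not given. Quantile normalization ended 24 calls beside those it turned, pseudocount 0.1 ended 2, the compared libraries alone 1, and leaving out E12.5 ended 2. Adding E15.5 as labelled, which bears only on the averages over stages, kept 50 calls and ended 2. Depth is unknown, so low members such as Wnt9b or Sfrp5 carry no counting interval.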

Other observations

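Several Wnt genes are close neighbours in the genome (GENCODE M21, GRCm38), and their levels can be set side by side. Wnt1 and Wnt10b lie 11.7 kb apart on chromosome 15: Wnt1 reached 12.4 TPM in midbrain at E10.5, where Wnt10b held 0.33 and 0.23 TPM. Wnt3 and Wnt9b lie 24.3 kb apart on chromosome 11, and Wnt3 held 11.2 and 10.3 TPM in midbrain at E12.5 where Wnt9b held 0.62 and 0.85 TPM. Wnt3a and Wnt9a, 16.2 kb apart on the same chromosome, were closer in level in forebrain at E11.5, where Wnt3a held 6.03 and 5.51 TPM and Wnt9a 5.86 and 5.44 TPM. At P0 Wnt3a held 0.13 and 0.17 TPM and Wnt9a 1.69 and 2.51 TPM. Wnt6 and Wnt10a lie 6.2 kb apart on chromosome 1, and Wnt6 held 6.18 and 4.23 TPM in hindbrain at E12.5 where Wnt10a held 0.8 and 0.78 TPM. In hindbrain at P0 the libraries of Wnt6 lay at 1.02 and 4.24 TPM; their fibroblast and meningeal markers summed to 643 and 1550 TPM.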
